A study of Mus musculus with 6 samples.

Results

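The MYC, MAX and MXD network is a set of transcription factors that compete for a shared DNA element. The genes described here were the 10 listed members, Myc, Max, Mxd1, Mxi1, Mxd3, Mxd4, Mnt, Mga, Mlx and Mlxip, taken as the rows whose gene name equals a member. All 10 were found, each in a single row, among 18908 gene IDs. RNA sequencing libraries from 6 mouse samples were compared, 3 described as VprBPsh, for an shRNA against VprBP (genotype label VprBP1 Knockdown), and 3 described as Contsh, for a control shRNA (genotype label WT). A short hairpin RNA (shRNA) lowers the transcript that it matches, and VprBP is an older name of Dcaf1. All 6 are labelled BMDM, bone marrow-derived macrophages, and the labels give no age, strain, time point or culture. Nothing in the labels says whether the 3 libraries of a label came from separate cultures or animals, so each p-value is set by the scatter among libraries of a label, which could be technical alone.

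In this network MYC activates transcription when bound to MAX, its obligate partner. The MXD proteins and MNT also pair with MAX, bind the same E-box (letters CACGTG) and recruit SIN3 corepressors, and MGA joins MAX within a polycomb complex. MLX is a second MAX-like partner, which pairs with the glucose-sensing Mondo proteins MLXIP and MLXIPL as well as with some MXD proteins and MNT. MYC is known for driving growth and ribosome production, and MXD proteins for opposing it as cells stop dividing or differentiate.

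The targeted transcript, the check of the labels, differed little. Dcaf1 stood at 36.0, 34.6 and 36.8 CPM (counts per 1000000, after TMM scaling between libraries) in the VprBPsh-labelled and at 42.2, 43.5 and 40.7 CPM in the Contsh-labelled libraries. Its log2 difference, here always VprBPsh-labelled minus Contsh-labelled, was -0.24 (SE 0.07, edgeR quasi-likelihood adjusted p = 0.00625). The labelled cell type was not borne out by its markers. Of 12 macrophage markers, 8 have no row in the table, Csf1r, Adgre1, Itgam and Ptprc among them. The other 4, Cd68, Mertk, Lyz2 and Cd14, summed to 16.5 to 18.2 CPM in the VprBPsh-labelled and 37.1 to 40.2 CPM in the Contsh-labelled libraries, and they did not move together. Cd68 was lower (log2 difference -4.95), Mertk (1.32) and Lyz2 (1.25) were higher and Cd14 was not called. The 8 pigment cell markers, Tyrp1, Dct and Pmel among them, summed to 19560 to 20070 CPM in the VprBPsh-labelled and 21050 to 21430 CPM in the Contsh-labelled libraries. They split, with 4 higher (Tyr 1.92, Sox10 1.81, Dct 0.59 and Tyrp1 0.08), 3 lower (Slc45a2 -1.93, Pmel -1.48 and Mlana -1.42) and Oca2 not called. The 5 stromal markers with a row, of 6, summed to 366 to 418 CPM in the VprBPsh-labelled and 47.3 to 50.3 CPM in the Contsh-labelled libraries, with Col1a1 holding 302 ± 28.1 CPM of the VprBPsh-labelled and 14.9 ± 1.07 CPM of the Contsh-labelled sum. Pdgfra and Pdgfrb were higher as well, Dcn was lower (-1.10) and Lum had too few counts to be tested. The sums for markers of B cells, dendritic cells, erythroid cells, neutrophils, and T and NK cells stayed at or below 14.5 CPM in every library. Genes on the mitochondrial genome took 4.89% to 5.56% of the counts in the VprBPsh-labelled and 8.65% to 9.48% in the Contsh-labelled libraries. These shares moved with the labels. In a refit without mitochondrial genes, 3 members of the network were called higher and 7 lower, as with them. The median over all genes shifted by -0.005 (log2) in that refit. Any other part of these shares in the results was not tested. Each direction given is one between labels, not an effect ascribed to VprBP.

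All 10 members differed between the labels, 3 higher and 7 lower in the VprBPsh-labelled libraries. Mxd3, Mxd4 and Mxi1, which encode MXD repressors, were higher. Myc, Max, Mxd1, Mnt, Mga, Mlx and Mlxip were lower. The call was an edgeR adjusted p below 0.05 (Benjamini-Hochberg) over all 14641 tested genes, of which 75.0% were called, 37.9% higher and 37.0% lower. A call is thus the common case in this comparison, and 10 of 10 is to be read against that share. Differences of at least 1 on the log2 scale were seen in 5 of the 10, Mxd3, Mxd4, Myc, Mxd1 and Mlx, against 33.6% of all tested genes. Of these, Mlx and Mxd1 lay near that limit, and fell to -0.90 and -0.97 with scaling by library size only. The median log2 difference was -0.55 over the members and -0.01 over all tested genes. The groups did not overlap for any of the 10, as for 77.2% of all tested genes. In bulk RNA, fewer cells of a type and less RNA per cell cannot be told apart. When only library size was used for scaling, the median over all genes shifted by 0.12 (log2), and a member difference near that size depends on the scaling. The plot of levels by library shows each member in all 6 libraries.

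**Figure D1:**
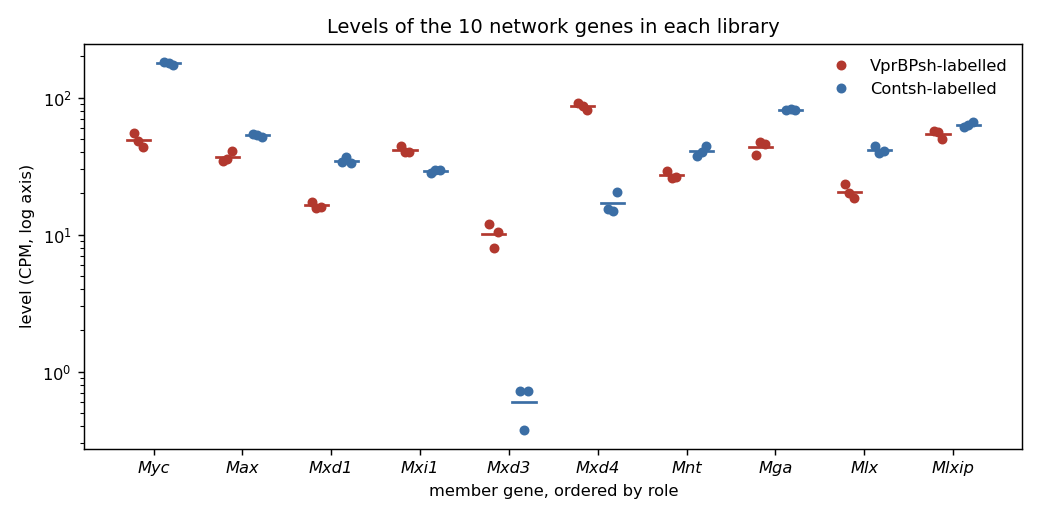
Levels of the 10 members in CPM on a log axis. Each point is a library, red for the 3 VprBPsh-labelled and blue for the 3 Contsh-labelled libraries, and each bar is the mean of 3. Mxd3, Mxd4 and Mxi1 sit higher in the VprBPsh-labelled libraries and the other 7 genes lower, with no overlap between the groups for any gene.

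The promoters that were available show which of those members carry the network's own element. RefSeq promoters on GRCm38.p6, running from 250 bases before to 50 after a start, were matched for 9 of the 10 members. There were 11 sequences in all because Mxi1 has 3 starts. No promoter sequence was available for Myc, so Myc was not searched. Both strands were searched for CACGTG, which reads the same on each. It was found in 4 members, Mxd4, Mnt, Mlx and Max. Counted by gene, it was found in 1226 of the 10453 tested genes with a promoter sequence. Counted by promoter, it was found in 7.15% of all 32851 promoters, those of untested genes included. Of these 4, Mxd4 was higher and the other 3 were lower in the VprBPsh-labelled libraries. The Mxd3 promoter, with the largest difference of the network, is printed because it holds the letters TTCCCGCC on its opposite strand, a form of the site bound by E2F factors. TTCCCGCC and TTTGGCGC, searched on both strands and chosen after the promoters had been read, occur in 2.68% of all promoters. Counted by gene, either was found in 606 of the 10453 tested genes with a promoter sequence. Of these 606, 43.6% were higher and 36.6% lower in the VprBPsh-labelled libraries, against 39.9% and 38.7% of the 10453. A match is only a match of letters. The sequences run 5′ to 3′ on the strand of the gene, with CACGTG, or for Mxd3 the E2F-type letters, in capitals.
Mxd4, chr5:34187661-34187960, minus strand: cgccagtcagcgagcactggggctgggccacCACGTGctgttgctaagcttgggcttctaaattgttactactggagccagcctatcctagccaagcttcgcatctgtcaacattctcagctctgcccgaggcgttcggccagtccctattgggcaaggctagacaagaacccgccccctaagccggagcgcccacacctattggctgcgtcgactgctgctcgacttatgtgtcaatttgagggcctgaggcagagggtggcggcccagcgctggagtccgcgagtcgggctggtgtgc
Mnt, chr11:74830674-74830973, plus strand: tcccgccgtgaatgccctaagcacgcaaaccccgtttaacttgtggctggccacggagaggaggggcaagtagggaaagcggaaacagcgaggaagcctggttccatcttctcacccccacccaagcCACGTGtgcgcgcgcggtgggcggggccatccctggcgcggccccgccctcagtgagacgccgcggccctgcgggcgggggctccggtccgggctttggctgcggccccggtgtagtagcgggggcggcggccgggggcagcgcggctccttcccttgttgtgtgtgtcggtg
Mlx, chr11:101087040-101087339, plus strand: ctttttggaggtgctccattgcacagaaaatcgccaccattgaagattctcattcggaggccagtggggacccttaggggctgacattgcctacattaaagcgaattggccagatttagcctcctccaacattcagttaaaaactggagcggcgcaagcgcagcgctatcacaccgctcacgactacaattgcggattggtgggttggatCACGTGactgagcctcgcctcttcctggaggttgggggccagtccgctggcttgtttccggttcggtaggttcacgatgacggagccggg
Max, chr12:76962199-76962498, minus strand: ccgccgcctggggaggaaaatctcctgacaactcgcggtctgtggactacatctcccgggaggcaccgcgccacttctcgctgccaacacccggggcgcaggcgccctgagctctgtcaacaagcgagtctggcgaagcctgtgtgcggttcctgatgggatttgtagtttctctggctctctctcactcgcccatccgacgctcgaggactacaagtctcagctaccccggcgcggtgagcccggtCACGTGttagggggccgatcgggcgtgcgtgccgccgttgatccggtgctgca
Mxd3, chr13:55329682-55329981, minus strand: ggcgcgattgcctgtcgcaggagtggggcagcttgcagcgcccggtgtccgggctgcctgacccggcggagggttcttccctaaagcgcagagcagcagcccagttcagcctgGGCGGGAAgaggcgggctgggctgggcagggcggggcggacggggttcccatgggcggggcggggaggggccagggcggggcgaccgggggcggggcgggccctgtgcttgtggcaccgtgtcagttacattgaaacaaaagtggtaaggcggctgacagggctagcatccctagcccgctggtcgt
The E-box began 219 bases before the start of Mxd4, 123 before that of Mnt, 40 before that of Mlx and 3 before that of Max. The E2F-type letters began 137 bases before the start of Mxd3.

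Myc, the activator of the network (ENSMUSG00000022346.15; GRCm38 chromosome 15, 61985391 to 61990374, plus strand), was lower in the VprBPsh-labelled libraries. It stood at 54.9, 48.1 and 44.01 CPM in VprBPsh-labelled libraries 1, 2 and 3, against 181, 180.4 and 173 CPM in Contsh-labelled libraries 1, 2 and 3. The highest VprBPsh-labelled value lay far below the lowest Contsh-labelled value. On average Myc reached 49.0 ± 5.52 CPM in the VprBPsh-labelled and 178 ± 4.53 CPM in the Contsh-labelled libraries (SD, n = 3 each), a 3.64-fold lower level. The log2 difference was -1.86 (SE 0.07, 95% interval -2.004 to -1.72, edgeR adjusted p = 2.77e-14), and 13.9% of all tested genes changed by more. No other annotated gene overlaps the exons of Myc.

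Max, the partner that MYC, MXD, MNT and MGA share (chromosome 12, 76937269 to 76962201, minus strand), was also lower, though by less. It stood at 34.8, 35.9 and 40.6 CPM in the VprBPsh-labelled and 54.1, 53.5 and 51.8 CPM in the Contsh-labelled libraries. This was a log2 difference of -0.52 (SE 0.07, edgeR adjusted p = 4.67e-06), a 1.43-fold lower level, which 60.3% of tested genes exceeded. Myc and its partner therefore moved in the same direction by different amounts, as the plot of differences shows.

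**Figure D2:**
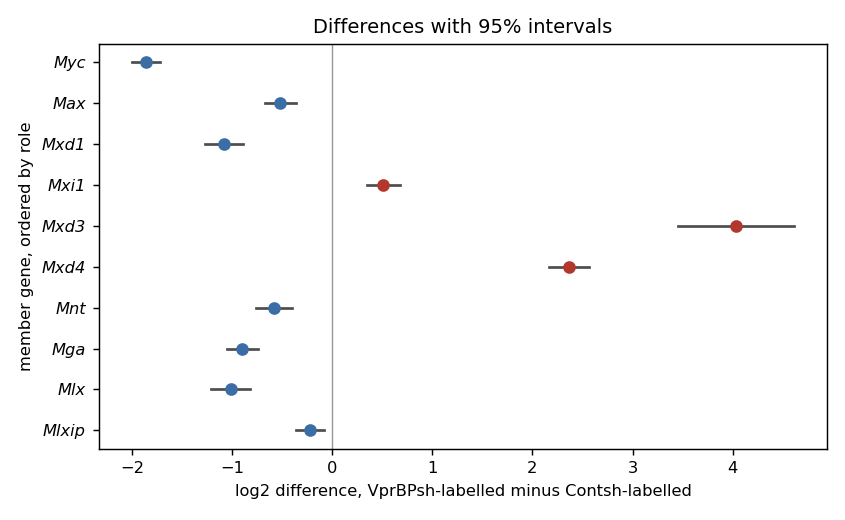
Log2 differences of the 10 members, VprBPsh-labelled minus Contsh-labelled, as points with 95% intervals from the edgeR fit. Red marks a higher and blue a lower level in the VprBPsh-labelled libraries. Mxd3 at 4.04 and Mxd4 at 2.37 lie farthest to the right and Myc at -1.86 farthest to the left.

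Among the 4 MXD genes, 3 were higher and Mxd1 was lower in the VprBPsh-labelled libraries. Mxd3 (ENSMUSG00000021485.14; chromosome 13, 55325168 to 55329823, minus strand) is known from mouse cells for expression in S phase, unlike its relatives. It had 220, 149 and 201 counts, or 11.9, 8.05 and 10.5 CPM, in the VprBPsh-labelled libraries, against 15, 6 and 12 counts, or 0.718, 0.372 and 0.716 CPM, in the Contsh-labelled libraries. The lowest VprBPsh-labelled value lay far above the highest Contsh-labelled value. The log2 difference was 4.04 (SE 0.28, 95% interval 3.46 to 4.62, edgeR adjusted p = 2.63e-10), a 16.4-fold higher level whose size rests on few Contsh-labelled counts. Only 2.70% of all tested genes changed by more.

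Mxd4 (ENSMUSG00000037235.13; chromosome 5, 34173883 to 34187720, minus strand), an MXD gene of quiescent and differentiating cells, had the highest level of the 4 in the VprBPsh-labelled libraries, per kilobase of exon as well. It stood at 91.7, 87.5 and 81.5 CPM there and at 15.4, 14.9 and 20.4 CPM in the Contsh-labelled libraries. On average it reached 86.9 ± 5.13 CPM in the VprBPsh-labelled and 16.9 ± 3.02 CPM in the Contsh-labelled libraries (SD, n = 3 each), a 5.16-fold higher level. The log2 difference was 2.37 (SE 0.10, 95% interval 2.17 to 2.57, edgeR adjusted p = 1.31e-13), which 9.04% of tested genes exceeded. Mxi1, also called Mxd2 (chromosome 19, 53310518 to 53375810, plus strand), moved in the same direction by much less. It stood at 44.6, 39.9 and 40.0 CPM in the VprBPsh-labelled and 28.0, 29.7 and 29.8 CPM in the Contsh-labelled libraries, with a log2 difference of 0.51 (SE 0.08, edgeR adjusted p = 1.15e-05).

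Mxd1 (chromosome 6, 86647042 to 86669161, minus strand), the founding MXD repressor, induced when many cell types differentiate, went the other way. It stood at 17.4, 15.7 and 16.0 CPM in the VprBPsh-labelled and 33.9, 36.8 and 33.3 CPM in the Contsh-labelled libraries. This was a log2 difference of -1.08 (SE 0.09, edgeR adjusted p = 4.15e-09), a 2.12-fold lower level. The 4 genes of this subfamily thus spanned log2 differences of -1.08 to 4.04.

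Mnt and Mga, the larger MAX partners, were both lower in the VprBPsh-labelled libraries. Mnt (chromosome 11, 74830920 to 74845725, plus strand), a broadly expressed repressor that opposes MYC at its sites, stood at 29.3, 26.0 and 26.5 CPM in the VprBPsh-labelled and 37.7, 40.4 and 44.5 CPM in the Contsh-labelled libraries. Mnt thus had a log2 difference of -0.58 (SE 0.08, edgeR adjusted p = 6.95e-06). Mga (chromosome 2, 119897228 to 119969581, plus strand) encodes a protein with both a T-box and a bHLH-zipper domain that anchors the PRC1.6 polycomb complex. It stood at 38.4, 47.6 and 45.9 CPM in the VprBPsh-labelled and 81.5, 83.1 and 81.3 CPM in the Contsh-labelled libraries. Mga thus had a log2 difference of -0.90 (SE 0.07, edgeR adjusted p = 3.22e-09), and VprBPsh-labelled library 1 was the lowest of the 6.

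Mlx, the second MAX-like partner, and Mlxip were lower too, whereas Mlxipl, the other Mondo gene, was higher and is described with the other network genes. Mlx (chromosome 11, 101087277 to 101092207, plus strand) stood at 23.2, 20.1 and 18.4 CPM in the VprBPsh-labelled and 44.1, 39.3 and 41.0 CPM in the Contsh-labelled libraries, with a log2 difference of -1.01 (SE 0.09, edgeR adjusted p = 1.63e-08). Mlxip (MondoA; chromosome 5, 123394798 to 123457932, plus strand), the glucose-sensing partner of MLX, stood at 57.1, 56.2 and 49.8 CPM in the VprBPsh-labelled and 61.2, 62.9 and 66.3 CPM in the Contsh-labelled libraries. The log2 difference was -0.22 (SE 0.07, 95% interval -0.37 to -0.08, edgeR adjusted p = 0.00684), the smallest of the 10. It was no longer called with scaling by library size only (-0.11, adjusted p = 0.167) or without VprBPsh-labelled library 3 (-0.15, adjusted p = 0.0598).

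Overlapping genes limit 5 of the members, since the strand setting of the counting is not given and reads in a shared stretch cannot be assigned. Mxd3 shares 105 exonic bases with Prelid1 on the opposite strand, which stood at 167 ± 3.48 CPM in the VprBPsh-labelled and 105 ± 8.47 CPM in the Contsh-labelled libraries and so was higher as well (log2 difference 0.67). The Contsh-labelled level of Mxd3, 0.602 ± 0.199 CPM, bounds what Prelid1 reads could have added there. Mlx shares 385 exonic bases with Psmc3ip, at 4.598 ± 1.23 CPM in VprBPsh and 1.35 ± 0.457 CPM in Contsh libraries, which moved opposite to Mlx. Mxd4 shares 514 bases with Gm42846, which stood at only 0.106 ± 0.104 CPM in the VprBPsh-labelled and 0.0995 ± 0.172 CPM in the Contsh-labelled libraries. Mxi1 overlaps Gm10197 and Mlxip overlaps Gm15747, and neither has a row in the table.

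The makeup of the network was then compared between genes per kilobase of annotated exon. In the VprBPsh-labelled libraries Myc led at 18.0 ± 2.03 CPM per kilobase (mean ± SD, n = 3). Max (10.3 ± 0.862), Mlx (10.3 ± 1.23) and Mxd4 (10.25 ± 0.605) followed, and neighbours among these 3 overlapped between libraries. Mlxip (6.53 ± 0.479), Mxi1 (6.09 ± 0.397) and Mnt (5.90 ± 0.384) came next, again with overlapping neighbours. Mxd3 (4.28 ± 0.815), Mga (2.87 ± 0.318) and Mxd1 (2.31 ± 0.127) were lowest. In the Contsh-labelled libraries Myc led at 65.6 ± 1.67 CPM per kilobase, followed by Mlx (20.75 ± 1.22), Max (14.8 ± 0.332), Mnt (8.83 ± 0.748) and Mlxip (7.62 ± 0.310). Mga (5.35 ± 0.0647), Mxd1 (4.90 ± 0.266), Mxi1 (4.28 ± 0.146), Mxd4 (1.99 ± 0.356) and Mxd3 (0.254 ± 0.0842) came below them, and no neighbours overlapped. Places in this order depend on the length used, and with the longest transcript in place of the union of exons 4 members in the VprBPsh-labelled and 6 in the Contsh-labelled libraries kept theirs. Myc had the highest group mean in each case. With the longest transcript, Myc over Max was 1.312, 1.113 and 0.8999 in VprBPsh-labelled libraries 1, 2 and 3. Max thus exceeded Myc in VprBPsh-labelled library 3, and the lead of Myc within the VprBPsh-labelled libraries depended on the length used.

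The balance of Myc and MXD transcripts differed between the labels. The 4 MXD genes summed to 24.8, 21.8 and 22.2 CPM per kilobase in the VprBPsh-labelled and 11.0, 11.5 and 11.8 CPM per kilobase in the Contsh-labelled libraries. The ratio of Myc to this sum was 0.815, 0.813 and 0.731 in the VprBPsh-labelled libraries, against 6.05, 5.79 and 5.41 in the Contsh-labelled libraries. MXD transcripts thus exceeded Myc per kilobase in all 3 VprBPsh-labelled libraries and Myc exceeded them in all 3 Contsh-labelled libraries. With Mnt added to the MXD sum the mean ratios were 0.625 ± 0.0387 in the VprBPsh-labelled and 3.25 ± 0.254 in the Contsh-labelled libraries. With the longest transcript as the length, Myc over the MXD sum was 0.576 ± 0.0334 in the VprBPsh-labelled and 4.43 ± 0.268 in the Contsh-labelled libraries. No test is given for these ratios, since they sum members chosen with results known.

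Relative to Max, the partner for which the others compete, Myc stood at 1.77 ± 0.329 in the VprBPsh-labelled and 4.44 ± 0.0235 in the Contsh-labelled libraries. The MXD sum over Max was 2.24 ± 0.306 in the VprBPsh-labelled and 0.774 ± 0.0423 in the Contsh-labelled libraries. Within the MXD sum, Mxd4 held 44.8% ± 2.26 in the VprBPsh-labelled and 17.4% ± 2.66 in the Contsh-labelled libraries, and Mxd3 held 18.6% ± 2.59 in VprBPsh and 2.23% ± 0.752 in Contsh libraries. Mxd1 held 10.1% ± 0.175 in the VprBPsh-labelled and 42.9% ± 2.74 in the Contsh-labelled libraries, and Mxi1 held 26.6% ± 0.261 in VprBPsh and 37.5% ± 0.459 in Contsh libraries. The leading MXD transcript was Mxd4 in all 3 VprBPsh-labelled libraries and Mxd1 in all 3 Contsh-labelled libraries.

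**Figure D3:**
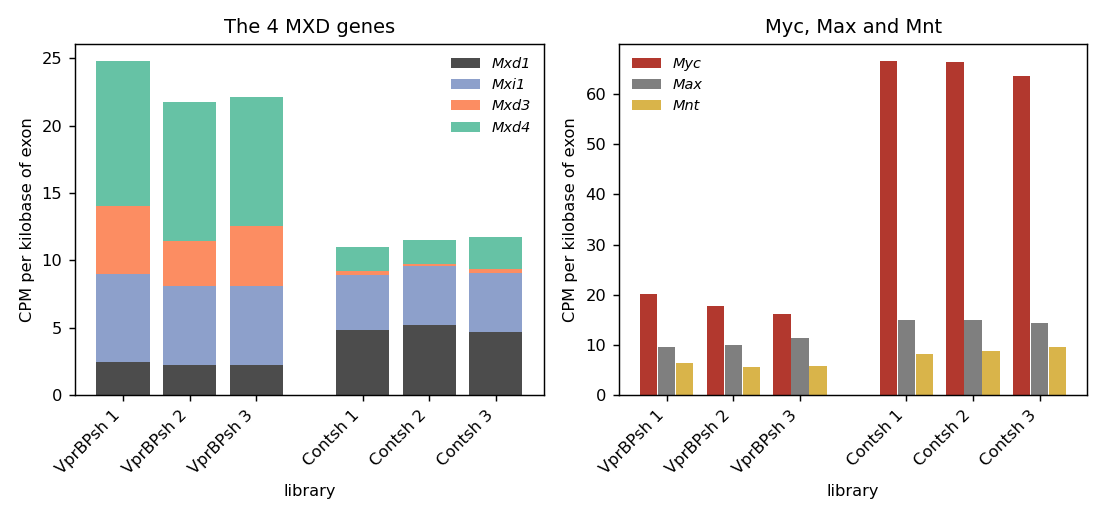
Levels per kilobase of exon in each library, the 3 VprBPsh-labelled libraries on the left of each panel and the 3 Contsh-labelled on the right. Bars for the 4 MXD genes are stacked, and reach 24.8, 21.8 and 22.2 CPM per kilobase in the VprBPsh-labelled and 11.0, 11.5 and 11.8 in the Contsh-labelled libraries. Myc, Max and Mnt have a bar each, on a different vertical scale.

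Other genes of the network were scarce or differed by less than Myc. Mycl, a paralog of Myc, stood at 0.647, 0.702 and 0.522 CPM in the VprBPsh-labelled and 0.144, 0 and 0.119 CPM in the Contsh-labelled libraries, too few counts to pass the filter for testing. Mycn and the rodent paralog Mycs have no row in the table. Mlxipl (ChREBP), the other Mondo protein, stood at 13.4 ± 0.0665 CPM in the VprBPsh-labelled and 10.8 ± 0.239 CPM in the Contsh-labelled libraries (log2 difference 0.31, SE 0.12, edgeR adjusted p = 0.0282). Pvt1, a long noncoding RNA gene downstream of Myc on chromosome 15, stood at 18.2 ± 0.899 CPM in VprBPsh and 25.3 ± 2.02 CPM in Contsh libraries. It was lower, as Myc was, but by less (-0.47, SE 0.10, edgeR adjusted p = 0.000272). Mycbp was higher (0.43, edgeR adjusted p = 0.0103). Bin1, a tumour suppressor that binds MYC, stood at 51.2 ± 0.573 CPM in VprBPsh and 50.6 ± 1.17 CPM in Contsh libraries, and the large ubiquitin ligase gene Mycbp2 at 159 ± 4.51 CPM in VprBPsh and 159 ± 1.29 CPM in Contsh libraries. These last 2 were not called, with 95% intervals of -0.11 to 0.15 for Bin1 and -0.10 to 0.10 for Mycbp2.

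Genes reported as targets of MYC were mostly lower in the VprBPsh-labelled libraries. All 66 on the list were tested, 16 being called higher, 45 lower and 5 neither, with a median log2 difference of -0.56 against -0.01 over all tested genes. The shares of all tested genes were 37.9% higher and 37.0% lower. Those with the smallest p moved both ways. Nop56, of ribosomal RNA processing, stood at 128 ± 5.46 CPM in VprBPsh and 494 ± 8.12 CPM in Contsh libraries, and Gnl3, a nucleolar GTPase, at 31.2 ± 2.43 CPM in VprBPsh and 132 ± 6.67 CPM in Contsh libraries. The replication helicase subunits Mcm5 and Mcm4 went the other way, Mcm5 at 72.0 ± 4.56 CPM in VprBPsh and 4.798 ± 0.242 CPM in Contsh libraries, and Mcm4 at 55.1 ± 2.49 CPM in VprBPsh and 6.74 ± 0.750 CPM in Contsh libraries. Ldha, the enzyme that makes lactate, stood at 1099 ± 27.3 CPM in VprBPsh and 226 ± 13.5 CPM in Contsh libraries. The 5 not called were Cdk4, Shmt2, Fbl, Noc4l and Dctpp1, each with a log2 difference between -0.21 and 0.32. The summed level of the 66 was 5063 ± 78.9 CPM in the VprBPsh-labelled and 5516 ± 45.3 CPM in the Contsh-labelled libraries.

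Genes reported as repressed by MYC were mostly higher in the VprBPsh-labelled libraries. Of 9 tested, 7 were higher and 2 lower, with a median log2 difference of 1.01. Over all tested genes 37.9% were higher and 37.0% lower, and the median was -0.01. Ndrg2 stood at 64.5 ± 4.23 CPM in VprBPsh and 15.1 ± 0.512 CPM in Contsh libraries, Thbs1, a matrix protein that restrains blood vessels, at 39.7 ± 0.619 CPM in VprBPsh and 12.6 ± 0.407 CPM in Contsh libraries, and the cell cycle inhibitor Cdkn1b at 281 ± 3.80 CPM in VprBPsh and 139 ± 4.37 CPM in Contsh libraries. The 2 lower were Cdkn1a, a cell cycle inhibitor and p53 target, at 254 ± 8.45 CPM in VprBPsh and 412 ± 13.1 CPM in Contsh libraries, and the stress gene Gadd45a at 53.4 ± 4.64 CPM in VprBPsh and 173 ± 12.4 CPM in Contsh libraries. Pdgfrb of this list is also a stromal marker.

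Genes were also counted by the E-box letters in their promoters. Among 1226 tested genes with CACGTG in a RefSeq promoter, 31.8% were higher and 48.6% lower in the VprBPsh-labelled libraries, with a median log2 difference of -0.195. Among all 10453 tested genes with a promoter sequence, 39.9% were higher and 38.7% lower, with a median of 0.005. The same letters are bound by USF, MITF, TFEB and other factors, so the set is not one of MYC sites.

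Targets of MLX and the Mondo proteins were higher in the VprBPsh-labelled libraries, while Mlx and Mlxip were lower. Of 9 tested, 8 were higher and 1, the fatty acid elongase Elovl6, was not called, and the median log2 difference was 1.56. For comparison, 37.9% of all tested genes were higher and 37.0% lower, with a median of -0.01. Txnip, an inhibitor of glucose uptake and a well known Mondo target, stood at 534 ± 18.9 CPM in the VprBPsh-labelled and 181 ± 1.01 CPM in the Contsh-labelled libraries (1.56, SE 0.04, edgeR adjusted p = 7.09e-16). Klf10 stood at 52.7 ± 4.59 CPM in VprBPsh and 14.2 ± 2.24 CPM in Contsh libraries, the circadian repressor Bhlhe40 at 98.0 ± 2.84 CPM in VprBPsh and 30.8 ± 0.553 CPM in Contsh libraries, the glycerol phosphate dehydrogenase Gpd1 at 14.1 ± 1.43 CPM in VprBPsh and 2.92 ± 0.00687 CPM in Contsh libraries, and the citrate lyase Acly at 157 ± 4.96 CPM in VprBPsh and 93.7 ± 3.997 CPM in Contsh libraries. Arrdc4, Pklr and G6pc have no row in the table.

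Of 19 genes of the SIN3 and NCoR corepressors, which MXD proteins and MNT recruit, 9 were higher, 5 lower and 5 not called, with a median log2 difference of 0.23. The share called, 73.7%, was close to the 75.0% of all tested genes. Sin3a, the scaffold bound by MXD proteins, stood at 57.4 ± 5.82 CPM in the VprBPsh-labelled and 24.8 ± 0.747 CPM in the Contsh-labelled libraries (1.21, SE 0.08, edgeR adjusted p = 2.59e-10). Its paralog Sin3b went the other way, at 123 ± 11.2 CPM in VprBPsh and 168 ± 12.6 CPM in Contsh libraries (-0.45, SE 0.07, edgeR adjusted p = 7.41e-06). The histone-binding Rbbp7 (84.5 ± 4.497 CPM in VprBPsh and 31.1 ± 0.744 CPM in Contsh libraries), Sinhcaf and the deacetylase Hdac2 were among those higher. The 5 lower were Sin3b, Sap30, Brms1, Arid4b and Ing2, and the 5 not called were Hdac3, Sap18, Sap130, Suds3 and Arid4a.

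Coactivators of MYC were more often lower. Of 20, 5 were higher, 12 lower and 3 not called, with a median log2 difference of -0.25, and 85.0% were called against 75.0% of all tested genes. Trrap, the scaffold through which MYC recruits histone acetyltransferases, stood at 249 ± 10.4 CPM in the VprBPsh-labelled and 328 ± 6.96 CPM in the Contsh-labelled libraries. The elongation factor Supt5 stood at 128 ± 11.2 CPM in VprBPsh and 207 ± 9.83 CPM in Contsh libraries. Ccnt1, the cyclin of the elongation kinase, stood at 106 ± 7.91 CPM in VprBPsh and 168 ± 13.5 CPM in Contsh libraries. Zbtb17 (MIZ1) is counted in this list and among its lower genes, though it is the factor through which MYC represses. It stood at 45.3 ± 2.35 CPM in VprBPsh and 83.3 ± 6.70 CPM in Contsh libraries. The acetyltransferase Kat5 fell to 13.8 ± 0.601 CPM, against 27.5 ± 2.40 CPM in the Contsh-labelled libraries. The 5 higher were Kat2a, Ep400, Smarcb1, Actl6a and Hcfc1, of which Kat2a had the largest log2 difference, 0.51, and the other 4 lay between 0.14 and 0.27. The 5 became 2 or 3 under several alternatives given in the closing section. Brd8 and Cdk9 were among those not called.

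Of 13 genes for partners of MGA in PRC1.6, 7 were higher, 4 lower and 2 not called, with a median log2 difference of 0.44, and 84.6% were called against 75.0% of all tested genes. Cbx3 also stands in the target list, Wdr5 among the coactivators and Hdac1 and Hdac2 among the corepressors. Pcgf6, the subunit that defines the complex, stood at 36.7 ± 3.31 CPM in the VprBPsh-labelled and 85.1 ± 1.08 CPM in the Contsh-labelled libraries, and L3mbtl2, Ring1 and Wdr5 were also lower. Cbx3 stood at 145.5 ± 9.21 CPM in VprBPsh and 53.7 ± 3.52 CPM in Contsh libraries and Tfdp2 at 44.9 ± 1.44 CPM in VprBPsh and 21.1 ± 1.67 CPM in Contsh libraries, both higher, and E2f6 and Rnf2 were not called. Of 23 genes of MYC protein turnover, 9 were higher, 10 lower and 4 not called, with a median log2 difference of -0.01. This split lay near that of all tested genes, of which 37.9% were higher and 37.0% lower. Aurka, a mitotic kinase that stabilises the related MYCN protein, stood at 21.9 ± 2.37 CPM in VprBPsh and 2.29 ± 0.624 CPM in Contsh libraries, and Cip2a, which protects MYC from dephosphorylation, at 40.1 ± 1.78 CPM in VprBPsh and 9.74 ± 1.80 CPM in Contsh libraries. Usp36, a nucleolar enzyme that removes ubiquitin from MYC, stood at 36.7 ± 3.82 CPM in VprBPsh and 104 ± 5.31 CPM in Contsh libraries, Skp2 at 19.4 ± 1.24 CPM in VprBPsh and 41.8 ± 1.99 CPM in Contsh libraries and Usp22 at 89.1 ± 5.62 CPM in VprBPsh and 128 ± 1.40 CPM in Contsh libraries. Fbxw7, the ligase that recognises phosphorylated MYC, was not called (16.5 ± 1.65 CPM in VprBPsh and 16.6 ± 1.02 CPM in Contsh libraries, 95% interval of the log2 difference -0.25 to 0.23), nor were Gsk3a, Axin1 and Fbxo32.

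Of the other E-box factors with a bHLH-zipper, 8 were tested, and calls fell on 2 as higher and 2 as lower, leaving 4 with none, at a median log2 difference of 0.21. That is 4 of 8 called, against 75.0% of all tested genes, and scaling by library size only made it 4 higher and 1 lower. Mitf, the pigment cell factor, stood at 94.6 ± 4.04 CPM in the VprBPsh-labelled and 27.5 ± 1.02 CPM in the Contsh-labelled libraries, and Srebf1, of fatty acid synthesis, at 136 ± 7.80 CPM in VprBPsh and 100.1 ± 2.58 CPM in Contsh libraries. Srebf2, of cholesterol synthesis, stood at 88.1 ± 6.59 CPM in VprBPsh and 143 ± 3.40 CPM in Contsh libraries and Tfe3, of lysosome genes, at 68.8 ± 2.77 CPM in VprBPsh and 80.2 ± 2.03 CPM in Contsh libraries, both lower. Usf1, Usf2, Tfeb and Tfap4 were not called. Usf1 and Usf2, the widely expressed E-box binders, had 95% intervals of -0.08 to 0.36 and -0.12 to 0.23 for their log2 differences. The plot of the lists sets all these genes beside each other.

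**Figure D4:**
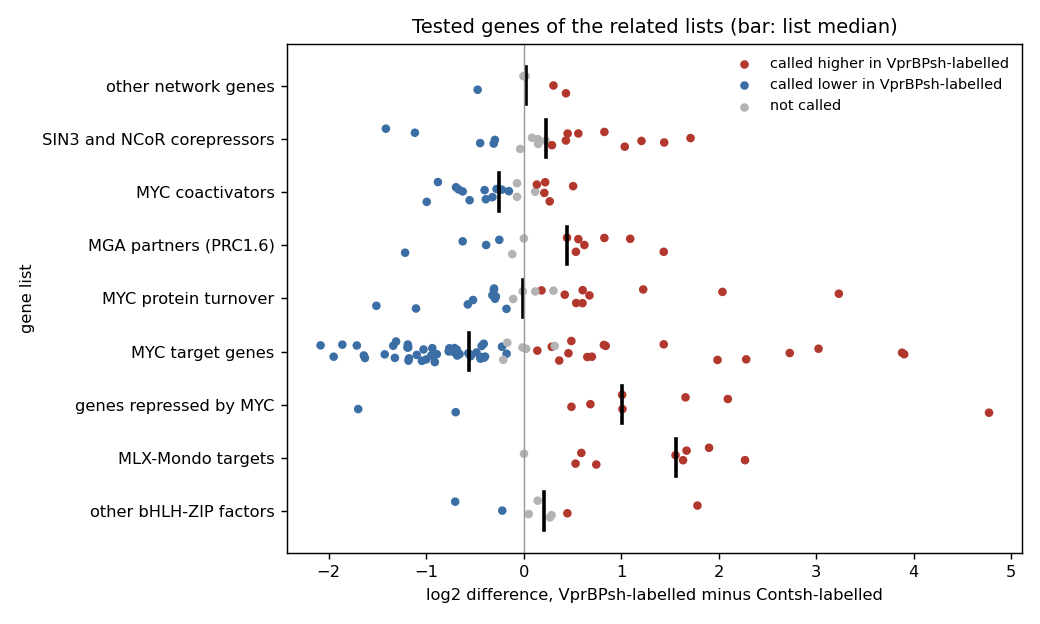
Log2 differences, VprBPsh-labelled minus Contsh-labelled, of the tested genes in each related list. Red points were called higher and blue points lower in the VprBPsh-labelled libraries, grey points were not called, the black bar is the median of the list and the vertical jitter carries no value. Of the 66 MYC target genes 45 lie among the lower calls, and of the 9 MLX-Mondo targets 8 lie among the higher calls.

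The genes most like Myc over the 6 libraries were found by the Euclidean distance of log2 CPM profiles centred on their mean, among all tested genes. They were Slc45a2, a transporter of the melanosome and also a pigment marker here (distance 0.172), Pnpla6 (0.175), Catsperd (0.178), Ssr4 (0.208) and Ddx39 (0.211). Slc45a2 stood at 212 ± 8.11 CPM in the VprBPsh-labelled and 807 ± 13.8 CPM in the Contsh-labelled libraries. The genes nearest to Mxd4 were Tspan17 (0.154), Dnajc9 (0.173), Rps6ka5 (0.224), Sh3bp5 (0.240) and Metrn (0.249). With 6 libraries in 2 groups, such likeness mostly ranks genes by the size of the difference between labels.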

How the data were processed

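Messenger RNA libraries were made with a SMARTer mRNA kit from RNA purified on RNeasy columns, per the labels' protocols. The authors deposited estimated counts per gene, made with Partek software on the build mm10, per the submitters' processing notes, and not scaled between libraries. Not stated in the sources are the aligner, the counter, the strand setting and the annotation release. From 62.1% to 64.5% of values per library were whole within 0.001. Totals were 17825340 to 18407356 in the VprBPsh-labelled and 16839445 to 21838875 in the Contsh-labelled libraries. No gene with a total below 10 is listed.

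The deposited counts were rounded, and edgeR 4.0.16 under R 4.3.3 tested them (quasi-likelihood F test, TMM scaling, filterByExpr, group as the only term), with Benjamini-Hochberg adjustment over 14641 genes. Exact two-sided permutation tests of the 3 against 3 values of each member gave p = 0.1, the smallest they allow. Lengths, coordinates and overlaps came from GENCODE M21 on GRCm38, to which 18501 of 18908 IDs matched. The members and lists were chosen with earlier results of these data known. Named genes were the members, Dcaf1, up to 5 genes per list by smallest p and those of any outcome held by 5 or fewer, apart from a few that are not reported here. Lists are described by counts and medians, with no set test. Alternatives used other scalings, filters, DESeq2 1.42.0, limma 3.58.1 (voom), a replicate block, mitochondrial genes left out, and each library left out. Levels are mean ± SD over 3 libraries unless given singly.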

Additional observations from a re-analysis of the deposited data

How the results depend on the processing

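Each member difference was recomputed under 15 alternatives, and 148 of 150 values kept their direction and call. None reversed, and the 2 no longer called were those of Mlxip, with scaling by library size only and without VprBPsh-labelled library 3. The log2 difference of Myc ranged from -1.94 to -1.75, that of Mxd3 from 3.80 to 4.19 and that of Mxd4 from 2.29 to 2.51. Over all genes, scaling by library size only gave 6160 higher and 4719 lower calls. MYC coactivators called higher numbered 5, against 3 with upper quartile scaling and 2 to 5 when a library was left out (2 without VprBPsh-labelled library 1 or Contsh-labelled library 2, 3 without VprBPsh-labelled library 2 or Contsh-labelled library 1 or 3). With library size only, other bHLH-zipper factors were 4 higher and 1 lower, and the cause was not tested beyond the shift of 0.12 in the median of all genes. Other network genes called higher numbered 1 to 3 when a library was left out, against 2 with all 6, with 1 without VprBPsh-labelled library 2 and 3 without VprBPsh-labelled library 3. They also numbered 3 with no filter and with scaling by library size only. With the longest transcript as the length, 4 and 6 of the 10 members kept their place in the order of levels in the VprBPsh-labelled and Contsh-labelled libraries. A replicate block gave 5395 higher and 5254 lower calls and all 10 members called as before. Libraries with the same number did not deviate together (r = -0.03, 0.01 and -0.04 across genes). No library correlated best with its own number, and the labels state no pairing. Depth limits Mxd3, with 6 to 15 counts in the Contsh-labelled libraries, and Mycl, which did not pass the filter for testing.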
